A study of Mus musculus with 8 samples.

Results

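The genes described here are 9 genes of sphingomyelin and ceramide turnover in cultured articular chondrocytes of the mouse, which make and keep the matrix of joint cartilage. They comprise the sphingomyelinase genes Smpd1, Smpd2, Smpd3 and Smpd4, the sphingomyelin synthase genes Sgms1 and Sgms2, the sphingosine kinase genes Sphk1 and Sphk2, and the acid ceramidase gene Asah1. All 9 were measured, among 22180 genes in all. They were picked by pathway and chosen on their values in the same comparison of Ad-Zip8 with Ad-null that is given below, so their differences are a description and no test is given for them. Each gene is represented by the probe set with 1 gene symbol and the highest mean over the 8 arrays.

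Cells carried either a recombinant adenovirus expressing the zinc transporter ZIP8 (Ad-Zip8, 4 arrays) or a null adenovirus (Ad-null, 4 arrays). All came from wild-type ICR mice aged 5 days, and RNA was taken 24 h after infection. The arrays are biological replicates by their labels, and the labels do not say whether a culture came from 1 animal or a pool, so adjusted p-values measure the spread between these arrays only, which may be partly technical. Both groups carried a virus, and uninfected cells were not analysed here. Values are on the log2 scale as deposited, made with RMA, so a difference of 1 is a 2-fold change.

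Sphingomyelin is a lipid of cell membranes. Sphingomyelinases split it into ceramide and phosphocholine, and sphingomyelin synthases run the opposite way by placing phosphocholine on ceramide. Ceramidases release sphingosine from ceramide, and sphingosine kinases turn sphingosine into sphingosine 1-phosphate, a signalling lipid with its own receptors. In the skeleton this pathway is best known through Smpd3, since mice that lack its product have defects of bone and cartilage mineralisation.

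Slc39a8, the gene of ZIP8, lay between 10.90 and 11.24 in the Ad-Zip8 arrays and between 6.12 and 6.27 in the Ad-null arrays. The chondrocyte identity of the cultures showed in Col2a1, Acan and Sox9, which averaged 13.24, 12.60 and 12.02 in Ad-Zip8 cells and 13.46, 13.14 and 12.20 in Ad-null cells. Across 10 chondrocyte markers the mean level of an array was 11.81 to 12.09 in Ad-Zip8 cells and 12.48 to 12.53 in Ad-null cells. The median log2 change was -0.40. All 10 were lower in every Ad-Zip8 array than in every Ad-null array, where 9.74% of all genes were. At a limma adjusted p under 0.05, 8 of the 10 fell, where 5.12% of all genes did, and Col2a1 and Sox9 did not pass. With the replicate number as a block 7 fell, without Comp (limma adjusted p = 0.0503), and leaving out Ad-Zip8 replicate 1 or Ad-null replicate 1, 3 or 4 left 5, without Comp, Cnmd and Col11a1. Of 10 macrophage markers only Cd68 rose (log2 change 0.83), and their mean level was 4.77 to 4.81 in Ad-Zip8 cells and 4.58 to 4.80 in Ad-null cells. None of 6 endothelial markers passed the test. Of 5 skeletal muscle markers Acta1 fell by 0.50 on the log2 scale (limma adjusted p = 0.0410), and with 1 array left out it passed only without Ad-Zip8 replicate 2. Of 6 osteoblast markers Ibsp rose by 0.58 and Sp7 fell by 0.79. These are whole-culture RNA samples, so fewer cells of a type and less RNA per cell cannot be told apart. The part of the chondrocyte marker shift in the values below was not tested.

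Of the 9 genes, Smpd3 was lower and Sphk1 was higher in Ad-Zip8 cells by more than any spread between replicates, and the other 7 differed little. At an adjusted p under 0.05 in the fit across all genes, 1 of the 9 was higher, where 5.48% of all genes were, and 1 was lower, where 5.12% were. Since the choice of these genes used the same comparison, nothing is read from those counts. The median log2 change of the 9 was 0.02, against -0.02 over all genes.

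**Figure D1:**
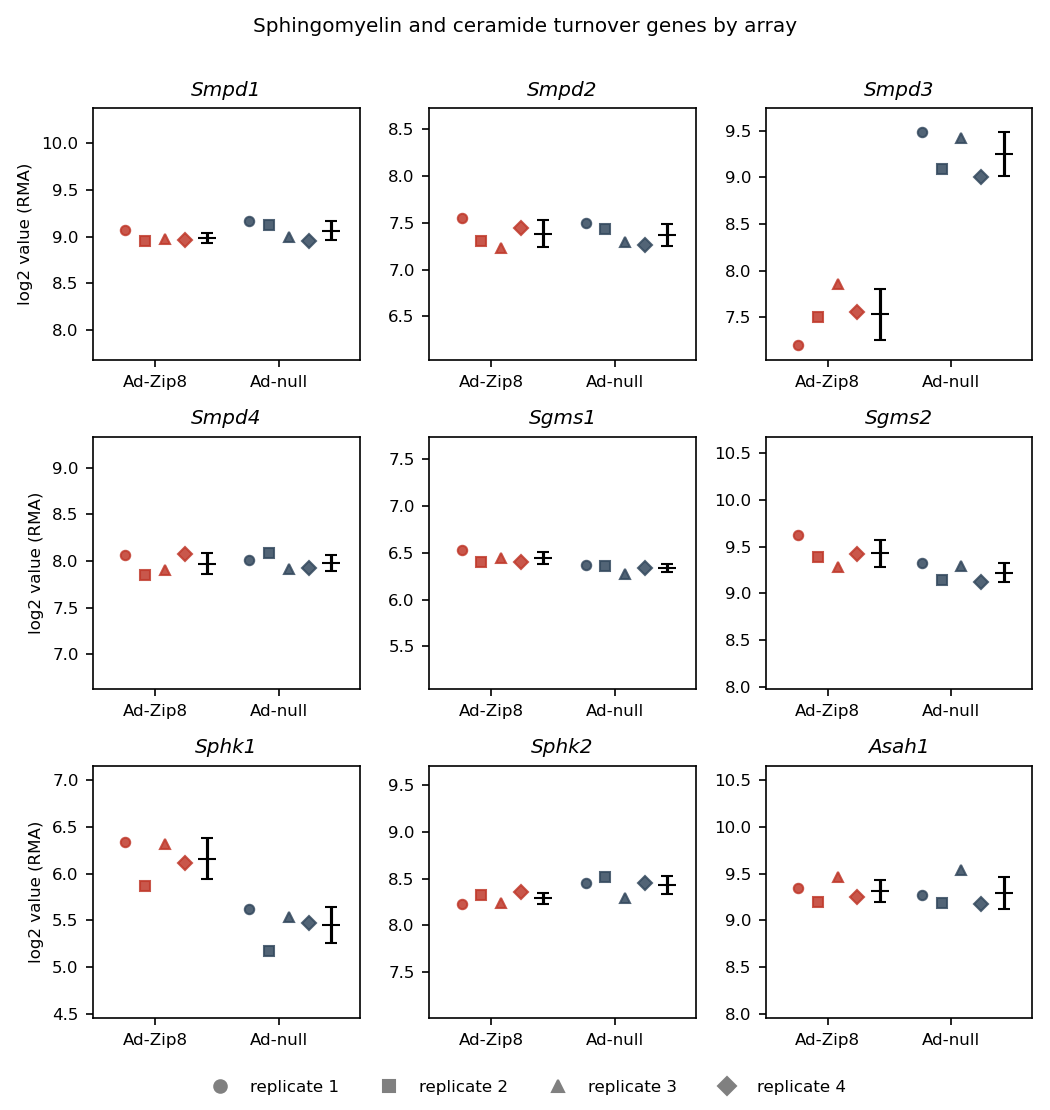
Log2 values of the 9 turnover genes, 1 point per array, Ad-Zip8 left and Ad-null right in each panel. Marker shape gives the replicate number and the bars give mean and SD (n = 4). Smpd3 lies at 7.196 to 7.857 in Ad-Zip8 and 9.002 to 9.484 in Ad-null arrays, Sphk1 at 5.87 to 6.34 in Ad-Zip8 and 5.17 to 5.62 in Ad-null arrays, and most other panels overlap. The vertical axes are not shared.

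Smpd3 encodes neutral sphingomyelinase 2, a membrane-bound enzyme that releases ceramide and phosphocholine at the cell surface and in the Golgi. It measured 7.196, 7.515, 7.857 and 7.558 in Ad-Zip8 replicates 1 to 4, against 9.484, 9.086, 9.419 and 9.002 in Ad-null replicates 1 to 4. Every Ad-Zip8 array lay below every Ad-null array, with 1.15 log2 units between the nearest pair. The means were 7.53 ± 0.27 in Ad-Zip8 and 9.25 ± 0.24 in Ad-null cells (SD, n = 4 each), a log2 change of -1.72 (SE 0.15), which is 3.29-fold lower. Between arrays of the same number the difference was -2.29, -1.57, -1.56 and -1.44, so replicate 1 gave the widest gap. Without Ad-Zip8 replicate 1 the log2 change was -1.60. Smpd3 was also the gene with the widest spread among the 9.

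The other 3 sphingomyelinase genes showed no such separation of the groups. Smpd1, which encodes the acid sphingomyelinase of lysosomes, measured 9.073, 8.954, 8.975 and 8.964 in Ad-Zip8 replicates and 9.168, 9.120, 9.001 and 8.950 in Ad-null replicates, a log2 change of -0.07 (SE 0.08). A further Smpd1 probe set gave -0.16, with overlapping groups as well. Smpd2, which encodes neutral sphingomyelinase 1, measured 7.55, 7.31, 7.23 and 7.45 in Ad-Zip8 replicates and 7.50, 7.43, 7.29 and 7.26 in Ad-null replicates, and its log2 change was 0.02 (SE 0.09). Smpd4, which encodes neutral sphingomyelinase 3, measured 8.06, 7.85, 7.90 and 8.08 in Ad-Zip8 replicates and 8.01, 8.09, 7.91 and 7.92 in Ad-null replicates, with a log2 change of -0.01 (SE 0.08). In these 3 genes the arrays of both groups were intermingled.

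The synthases that rebuild sphingomyelin were slightly higher in Ad-Zip8 cells on average. Sgms2, whose product works at the plasma membrane and the Golgi, measured 9.62, 9.39, 9.28 and 9.42 in Ad-Zip8 replicates, against 9.32, 9.14, 9.29 and 9.12 in Ad-null replicates. Ad-Zip8 replicate 3 lay among the Ad-null arrays, so the groups overlapped. The log2 change of Sgms2 was 0.21 (SE 0.09). Sgms1, whose product works in the Golgi, measured 6.53, 6.40, 6.45 and 6.40 in Ad-Zip8 replicates and 6.37, 6.36, 6.27 and 6.34 in Ad-null replicates. Its groups did not overlap, but only 0.03 log2 units separated them, and the log2 change was 0.11 (SE 0.07).

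Sphk1 encodes a sphingosine kinase of the cytoplasm. It measured 6.34, 5.87, 6.32 and 6.11 in Ad-Zip8 replicates 1 to 4, against 5.62, 5.17, 5.53 and 5.47 in Ad-null replicates 1 to 4. All Ad-Zip8 arrays exceeded all Ad-null arrays, and replicate 2 was the lowest array in each group. The means were 6.16 ± 0.22 in Ad-Zip8 and 5.45 ± 0.20 in Ad-null cells (SD, n = 4 each), a log2 change of 0.71 (SE 0.13), or 1.64-fold higher. The differences between arrays of the same number were 0.71, 0.71, 0.79 and 0.64, and with the replicate number as a block (paired fit) the SE was 0.07. The medians of the arrays lay between 5.04 and 5.11, just below the Ad-null values of Sphk1. Leaving out Ad-Zip8 replicate 2 gave the highest Sphk1 change, 0.81, and leaving out Ad-null replicate 2 the lowest, 0.62.

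Its paralog Sphk2, which encodes a sphingosine kinase found largely in the nucleus and mitochondria, had overlapping groups. Sphk2 measured 8.23, 8.32, 8.24 and 8.36 in Ad-Zip8 replicates, against 8.45, 8.52, 8.29 and 8.45 in Ad-null replicates, a log2 change of -0.14 (SE 0.08). Asah1, whose lysosomal product hydrolyses ceramide, measured 9.35, 9.20, 9.46 and 9.25 in Ad-Zip8 replicates and 9.27, 9.19, 9.54 and 9.18 in Ad-null replicates. Its log2 change was 0.02 (SE 0.10), and replicate 3 was its highest array in both groups. Over the 7 genes other than Smpd3 and Sphk1 the log2 changes lay between -0.14 and 0.21, with an SE of 0.07 to 0.10. In all, 2 of the 9 genes were higher without overlap, where 7.89% of all genes were, 1 was lower without overlap, where 9.74% were, and 6 overlapped. Nothing is read from these counts either, since the same comparison chose the genes.

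**Figure D2:**
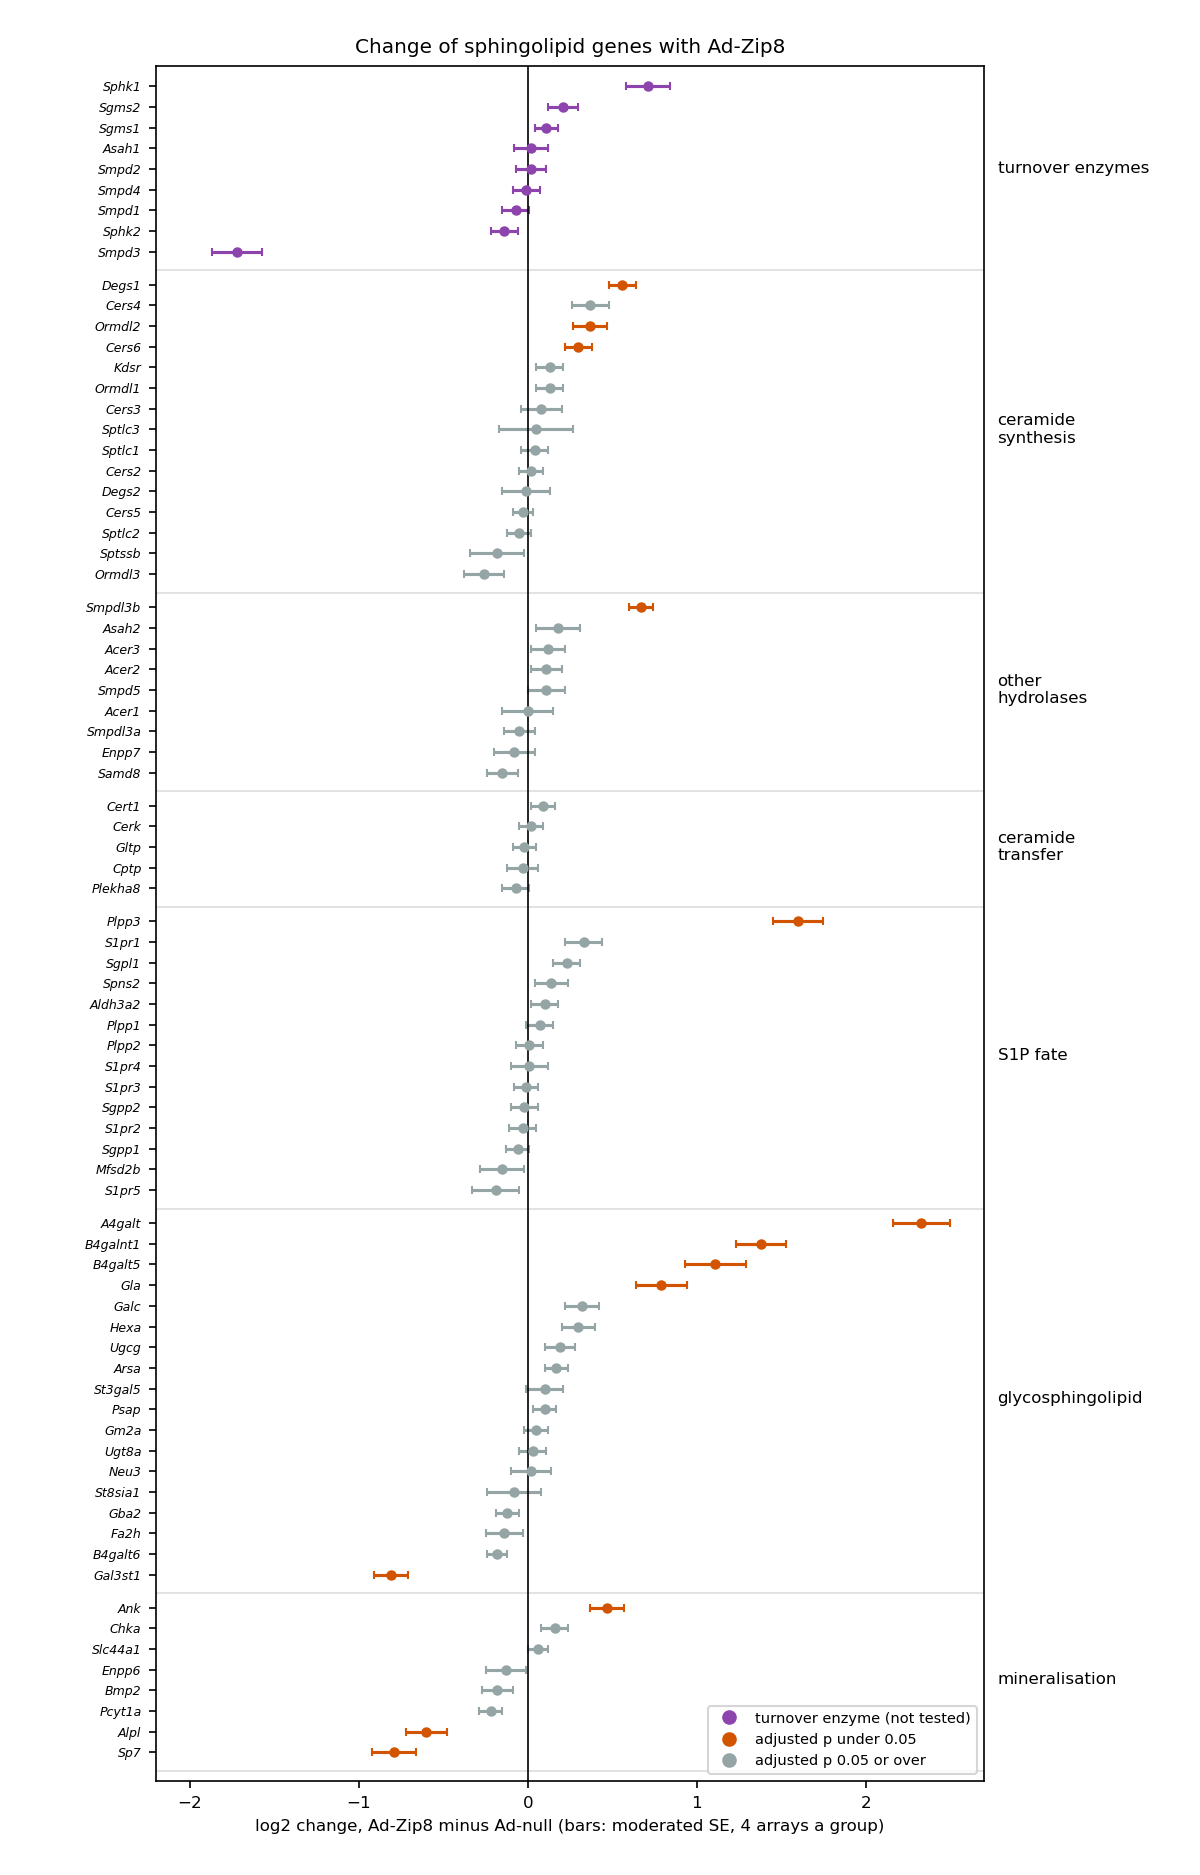
Log2 change of each measured sphingolipid and mineralisation gene, Ad-Zip8 minus Ad-null, with bars of 1 moderated SE (4 arrays a group). The 9 turnover genes are on top in purple without a test, and in the lists under them orange marks an adjusted p under 0.05. Smpd3 at -1.72 is the lowest value and A4galt at 2.33 the highest.

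The rest of the pathway was taken as 5 lists holding 61 measured genes, of which 9 rose, 1 fell and 51 did not pass limma's test with adjustment over all 22180 genes. Together that is 16.4% of them, against 10.6% of all genes, with a median log2 change of 0.05 against -0.02. The lists were drawn up with earlier results of these data known, so their shares here and below are a description. By overlap alone, 13 of the 61 (21.3%) were higher in every Ad-Zip8 array than in every Ad-null array, against 7.89% of all genes, and 2 (3.28%) were lower in every one, against 9.74%. With the replicate block 11 of the 61 rose: Cers6 was lost, and the ceramide synthase gene Cers4 (limma adjusted p = 0.0162), the galactosylceramidase gene Galc (0.0287) and Hexa (0.0335), which encodes a subunit of beta-hexosaminidase, were added. In ceramide synthesis 3 of 15 rose and none fell, with a median log2 change of 0.05. Degs1, which encodes the desaturase that makes ceramide from dihydroceramide, measured 10.12, 9.88, 9.86 and 9.98 in Ad-Zip8 replicates, against 9.50, 9.34, 9.30 and 9.45 in Ad-null replicates. Its groups did not overlap and the log2 change was 0.56 (SE 0.08, limma adjusted p = 0.00197).

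The other genes of that list that passed were close to the threshold. Ormdl2, which encodes a regulator of serine palmitoyltransferase, rose by 0.37 on the log2 scale (SE 0.10, limma adjusted p = 0.0360) without overlap between groups. Cers6, a ceramide synthase gene, rose by 0.30 (SE 0.08, limma adjusted p = 0.0498), also without overlap. With the replicate block the adjusted p of Cers6 was 0.0974. With 1 array left out, Cers6 passed only without Ad-Zip8 replicate 4 (adjusted p up to 0.131) and Ormdl2 only without Ad-null replicate 3 (up to 0.0880). The serine palmitoyltransferase genes Sptlc1 and Sptlc2, which start the pathway, had log2 changes of 0.04 (SE 0.08) and -0.05 (SE 0.07) and did not pass.

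The list of other hydrolases and relatives held 9 genes, among them Samd8, which is not a hydrolase gene. In it Smpdl3b rose and 8 did not pass, so 11.1% passed, against 10.6% of all genes. Smpdl3b encodes a membrane-bound phosphodiesterase related to acid sphingomyelinase. It measured 7.85, 7.87, 7.92 and 7.98 in Ad-Zip8 replicates and 7.30, 7.23, 7.10 and 7.29 in Ad-null replicates, a tight and separate pair of groups. Its log2 change was 0.67 (SE 0.07, limma adjusted p = 2.91e-04), while its relative Smpdl3a had -0.05 (SE 0.09, adjusted p = 0.823). A dimmer Smpdl3a probe set had 0.09. None of the 5 genes of ceramide phosphorylation and transfer passed, with log2 changes from -0.07 to 0.09, Cert1 and the ceramide kinase gene Cerk among them.

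Downstream of the sphingosine kinases, 1 of 14 genes of sphingosine 1-phosphate breakdown, export and reception rose and none fell. That is 7.14% past the threshold, against 10.6% of all genes. Plpp3 encodes a membrane phosphatase that removes the phosphate from extracellular lipids such as sphingosine 1-phosphate and lysophosphatidic acid. It measured 9.91, 9.44, 9.20 and 9.48 in Ad-Zip8 replicates, against 7.93, 8.09, 7.60 and 8.02 in Ad-null replicates. The groups were far apart, with a log2 change of 1.60 (SE 0.15, limma adjusted p = 1.52e-04). Its relatives Plpp1 and Plpp2 had log2 changes of 0.07 and 0.01. The lyase gene Sgpl1 (0.23, SE 0.08, adjusted p = 0.0940) and the receptor gene S1pr1 (0.33, SE 0.11, adjusted p = 0.101) did not pass, and neither did S1pr2 at -0.03 and S1pr3 at -0.01. Without Ad-Zip8 replicate 3 S1pr1 passed, and Sgpl1 passed with a variance trend or with dim genes left out.

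Glycosphingolipid genes had the widest range of the lists: 4 of 18 rose, 1 fell and the test was not passed by 13. Their median change was 0.10 on the log2 scale, and 27.8% passed, against 10.6% of all genes. A4galt encodes the enzyme that makes globotriaosylceramide. It measured 9.19, 8.65, 8.56 and 8.54 in Ad-Zip8 replicates, against 6.47, 6.49, 6.01 and 6.66 in Ad-null replicates, a log2 change of 2.33 (SE 0.17, limma adjusted p = 3.35e-05). No array of one group came near the other.

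B4galnt1, which encodes the enzyme that makes the gangliosides GM2 and GD2, rose by 1.38 on the log2 scale (SE 0.15, limma adjusted p = 3.48e-04). B4galt5, which encodes a lactosylceramide synthase, rose by 1.11 (SE 0.18, limma adjusted p = 0.00288). Its relative B4galt6 was at -0.18 (SE 0.06) with an adjusted p of 0.122, and passed only with a variance trend or with dim genes left out. The fourth gene that rose was Gla, the gene of the alpha-galactosidase that breaks down globotriaosylceramide (0.79, SE 0.15, limma adjusted p = 0.00904), named after its value was seen. The gene that fell was Gal3st1, which encodes the sulfotransferase that makes sulfatide. It measured 6.13, 6.55, 6.50 and 6.51 in Ad-Zip8 replicates and 7.37, 7.25, 7.16 and 7.17 in Ad-null replicates, a log2 change of -0.81 (SE 0.10, limma adjusted p = 7.83e-04). Ugcg, which encodes the enzyme that starts this branch with glucosylceramide, had 0.19 (SE 0.09, adjusted p = 0.241).

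**Figure D3:**
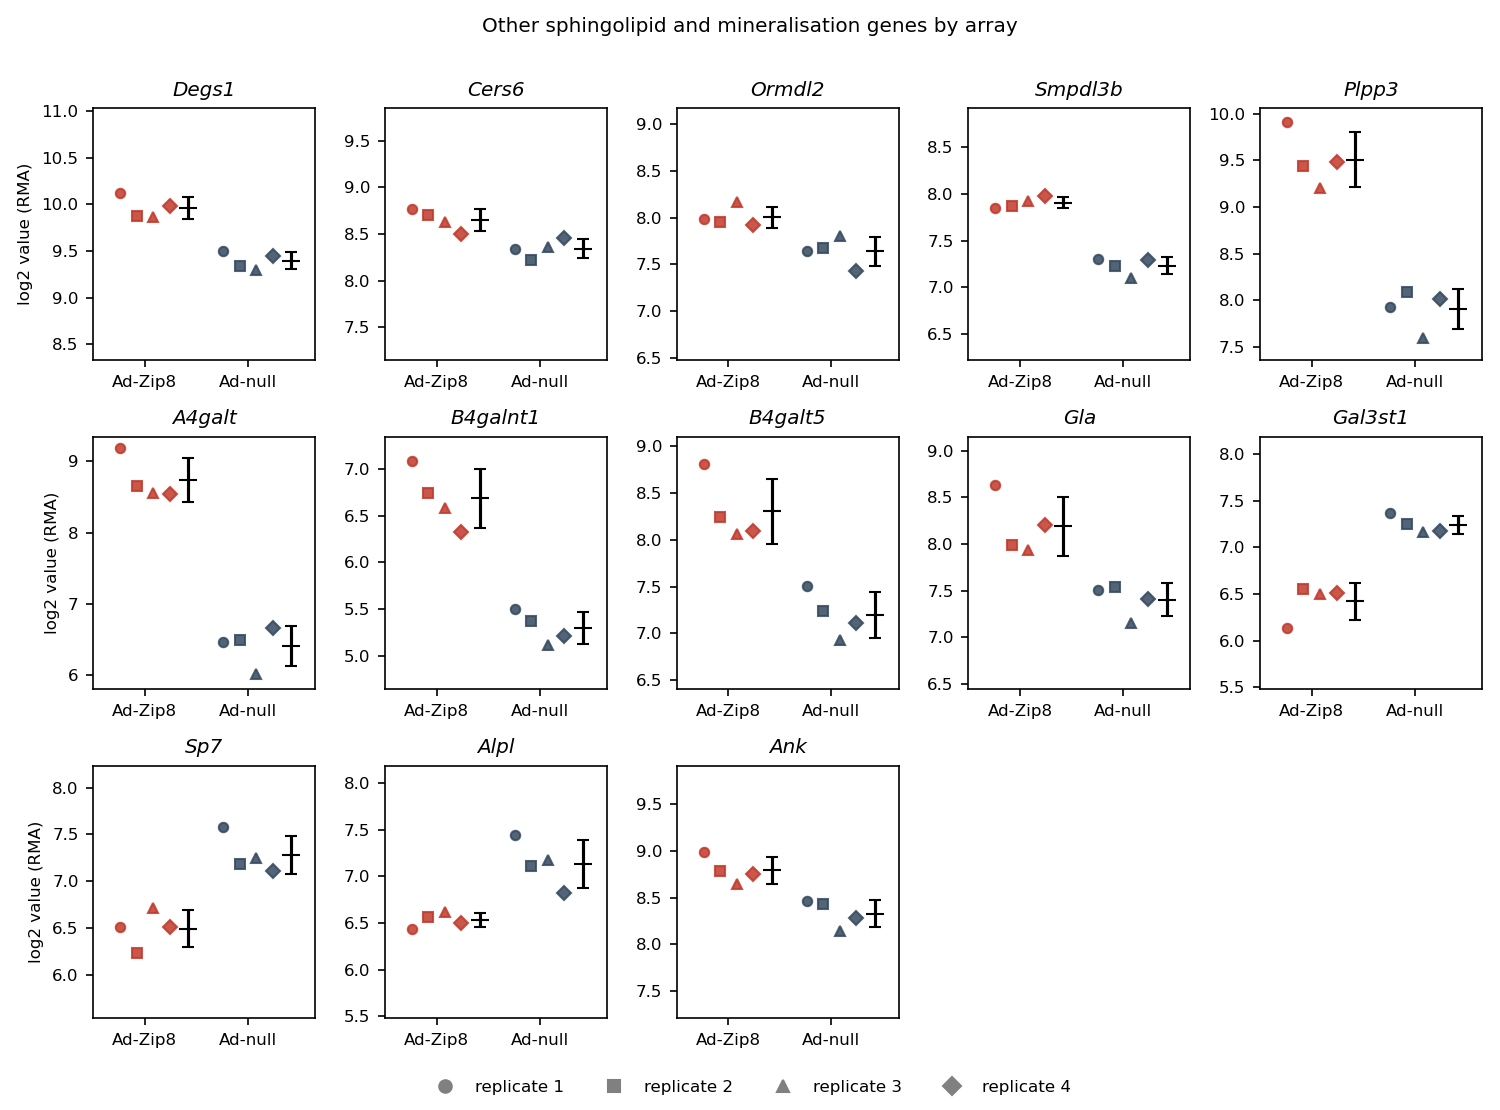
Log2 values by array of the genes that passed the test in the lists around the turnover genes, with Ad-Zip8 left and Ad-null right. Bars give mean and SD (n = 4 arrays) and the vertical axes are not shared. In Plpp3, A4galt and B4galt5 Ad-Zip8 replicate 1 is the highest array.

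Phosphocholine, the water-soluble product of sphingomyelinases, can supply phosphate for mineral. Of 8 measured genes of phosphocholine handling and mineralisation, 2 fell, 1 rose and 5 did not pass. That is 37.5% past the threshold, against 10.6% of all genes, in a list also drawn up with earlier results known. Sp7, which encodes a transcription factor of osteoblasts and maturing chondrocytes, measured 6.51, 6.23, 6.71 and 6.51 in Ad-Zip8 replicates and 7.58, 7.18, 7.25 and 7.11 in Ad-null replicates, a log2 change of -0.79 (SE 0.13, limma adjusted p = 0.00303). Alpl, the gene of tissue-nonspecific alkaline phosphatase, fell by 0.60 on the log2 scale (SE 0.12, limma adjusted p = 0.00988). A dimmer Alpl probe set had a log2 change of -0.18, and there the groups overlapped (6.14, 6.12, 6.08 and 5.91 in Ad-Zip8 replicates, 6.25, 6.22, 6.38 and 6.11 in Ad-null replicates). Ank, whose product takes part in the release of pyrophosphate, an inhibitor of mineral growth, rose by 0.47 (SE 0.10, limma adjusted p = 0.0152). The choline kinase gene Chka had 0.16 and the choline transporter gene Slc44a1 0.06, and neither passed. A dimmer Chka probe set had -0.11. Bmp2, which encodes a growth factor of skeletal cells, had -0.18 (SE 0.09, adjusted p = 0.266).

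Ad-Zip8 replicate 1 was the array farthest from the Ad-null mean, in the direction of the change, for both Smpd3 and Sphk1 and for 10 of the 13 genes called in these lists. Over all 2352 called genes it was the farthest array in 54.0%. Its Slc39a8 value of 11.16 lay within the range of the other Ad-Zip8 arrays.

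The genes nearest in pattern to Smpd3 and Sphk1 were found by the root mean square difference between log2 values centred on each gene's mean over the 8 arrays. Only 17243 genes were compared. Left out and not ranked were the turnover genes, predicted and clone-named genes, small RNAs, and olfactory and vomeronasal receptor genes. A small value means a like profile on average over the 8 arrays, not in each of them, and the difference between the groups is part of the profile. For Smpd3 the nearest were Slc8a3 (0.196), Satb1 (0.250), Slc16a14 (0.270), Fxyd6 (0.277) and Cnn1 (0.307), against a median of 0.884 over all genes compared. For Sphk1 the nearest were Klk10 (0.106), Dbf4 (0.108), Ticrr (0.111), Cep43 (0.113) and Cenpe (0.117), against a median of 0.436. The 5 genes near Smpd3 had log2 changes of -1.79 to -1.24, and those near Sphk1 of 0.69 to 0.86.

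**Figure D4:**
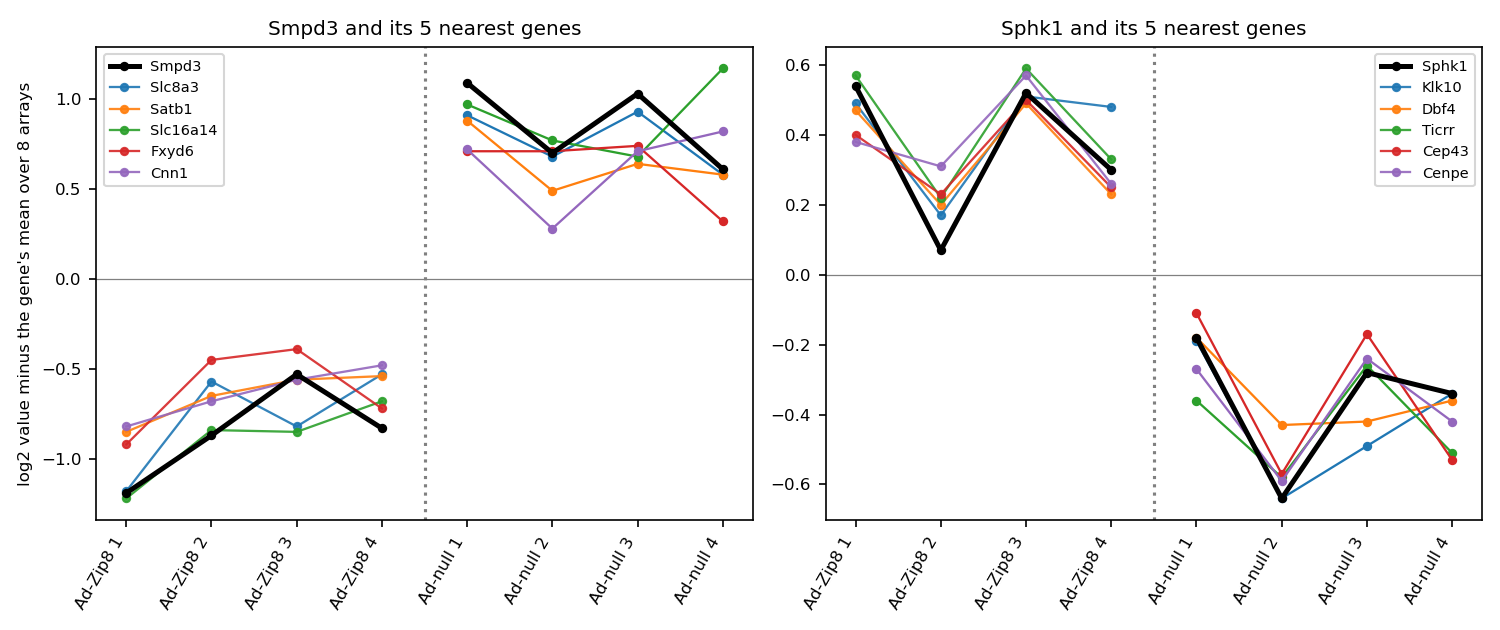
Log2 values of Smpd3 (left) and Sphk1 (right) with their 5 nearest genes of those compared, each minus its mean over the 8 arrays. Lines only join the points of a gene within a group, and the dotted line parts Ad-Zip8 from Ad-null arrays. Smpd3 lies below 0 in the Ad-Zip8 arrays and above 0 in the Ad-null arrays, and Sphk1 the other way.

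Sequence before the transcription start is shown for Sphk1, the turnover gene that was higher, and for A4galt, the listed gene with the largest rise, so that their starts can be compared. Of the 9 turnover genes 7 matched the RefSeq promoter table (GRCm38.p6), and Smpd3 and Asah1 had no window there. The 250 bases before the most upstream of 5 listed Sphk1 starts lie at chr11:116530850-116531099 on the plus strand, and those before the A4galt start at chr15:83251730-83251979 on the minus strand. Both are written 5′ to 3′ with motif matches in capitals.
Sphk1: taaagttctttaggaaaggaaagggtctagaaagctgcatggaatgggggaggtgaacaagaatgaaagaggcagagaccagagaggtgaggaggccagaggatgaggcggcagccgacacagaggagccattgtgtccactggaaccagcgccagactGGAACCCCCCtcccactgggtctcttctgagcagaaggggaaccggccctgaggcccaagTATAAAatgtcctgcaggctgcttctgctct
A4galt: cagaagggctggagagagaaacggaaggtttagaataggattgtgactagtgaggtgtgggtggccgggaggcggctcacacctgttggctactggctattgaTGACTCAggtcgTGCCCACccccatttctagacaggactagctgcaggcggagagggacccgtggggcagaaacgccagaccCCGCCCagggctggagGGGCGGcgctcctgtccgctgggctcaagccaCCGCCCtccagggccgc

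Searched on both strands were the TATA box (TATAAA), the GC box (GGGCGG) and the AP-1 site (TGANTCA). Loose forms of the metal response element core (TGCNCNC) and of the NF-kB consensus, with A or G at base 3, were searched likewise. The Sphk1 window held a TATA box from -31 to -26 and an NF-kB match from -91 to -82, and none of the other 3 motifs. The A4galt window held 3 GC boxes, an AP-1 match from -147 to -141 and a metal response core from -135 to -129. No matches overlapped. Among 32841 windows of the same length, 12.4% held the TATA box, 32.7% the GC box, 6.75% the AP-1 site, 44.4% the metal response core and 9.55% the NF-kB site. The 2 windows shared no motif of the 5, and their G and C content was 55.6% for Sphk1 and 64.0% for A4galt. These matches describe letters in a window, not sites or causes.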

How the data were processed

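The authors deposited 1 log2 value per probe set and array, and the submitters' processing notes name RMA as the method. Not given in the sources used here were its version, annotation, build and filters. RMA corrects background, brings arrays to a common distribution and summarises probes, which compresses differences at both ends of the scale (0.85 to 13.8). GEO's platform annotation gave a single symbol for 23521 of the 41345 probe sets, several for 1814 and no entry for 16010, and the one with the highest mean over 8 arrays was kept for each of 22180 genes. No detection call was made from these values.

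Ad-Zip8 (4 arrays) was compared with Ad-null (4 arrays) by limma 3.58.1 in R 4.3.3 (lmFit, eBayes, two-sided, no covariates), with Benjamini-Hochberg adjustment over all genes and a threshold of 0.05. The script was tested on simulated data. Changes are Ad-Zip8 minus Ad-null with moderated SE. Members and lists were chosen with earlier results of these data known. The naming rule took all 9 members, Slc39a8, up to 3 genes per list and direction by adjusted p, the 5 nearest genes to the members with the largest changes, and Col2a1, Acan and Sox9. Gla and the list genes given as not passing were named after their values were seen. Of 79 listed genes 69 were measured with a 1-symbol probe set, and 10 were not analysed here.

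Both groups carry replicate numbers 1 to 4. Deviations from group means correlated at 0.108 to 0.374 between same-numbered arrays and at -0.271 to 0.155 between others, so the numbers were taken to pair the arrays in an alternative fit; this pairing comes from the data, not the labels. Other alternatives were a variance trend, leaving out dim genes, 2 rescalings, the mean over probe sets and leaving out each array.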

Additional observations from a re-analysis of the deposited data

Results flagged for a closer look

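Among 72 groups of 4 arrays (each named gene in each infection), 4 held an array whose gap to its nearest neighbour exceeded Dixon's 95% critical value as a share of the group's range; chance alone flags about 1 in 20. None was in a sphingomyelin or ceramide turnover gene. Gal3st1 was 6.13 in Ad-Zip8 replicate 1, against 6.50 to 6.55 in the other Ad-Zip8 arrays. Klk10 was 8.73 in Ad-Zip8 replicate 2, against 9.04 to 9.07. Fxyd6 was 10.22 in Ad-null replicate 4, against 10.61 to 10.64. Col2a1 was 13.49 in Ad-null replicate 1, against 13.45 in each of the other Ad-null arrays, a gap that is small beside its group difference of -0.22.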

How the results depend on the processing

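The results were recomputed under 14 alternative settings, 8 of which left out an array. Smpd3 lay between -1.82 and -1.60 and Sphk1 between 0.62 and 0.81 on the log2 scale. All 126 values of the 9 turnover genes moved by less than 1 SD, but most of them could not have done otherwise. The replicate block, the variance trend and leaving out dim genes cannot alter a log2 change. The mean over probe sets alters only genes with more than 1 probe set. Leaving out an array cannot move a group mean by as much as 1 SD. Nothing is therefore read from this count. With the replicate block (paired arrays) 1278 genes rose and 1059 fell over all genes, against 1216 and 1136 without it. Among the listed genes other than the 9, it lost Cers6 and Comp, added Cers4, Galc and Hexa, and changed no other call. Leaving out each array gave 924 to 1119 higher and 708 to 923 lower genes, with 708 without Ad-Zip8 replicate 1 and 721 without Ad-null replicate 1. Of the 61 other sphingolipid genes, 9 rose, against 13 with the variance trend, 11 with the replicate block and 11 after repeated quantile normalization. With an array left out 7 to 9 rose. Leaving out dim genes kept only genes with a mean at or above the median of all genes, and 13 of those kept in these lists rose. In both the variance trend and the dim-gene setting 2 fell, against 1, the added gene being B4galt6. Calls over all genes were also more numerous in these settings. With the variance trend 1414 rose and 1621 fell, and with dim genes left out 1297 rose and 1625 fell of the genes kept. The cause was not tested. Across all 14 settings the adjusted p of Cers6 lay between 0.0131 and 0.131 and that of Ormdl2 between 0.0101 and 0.0880. The variance trend brought Col2a1 to an adjusted p of 0.00587 and Sox9 to 0.0207, and leaving out dim genes to 0.0206 and 0.0431, all past the threshold. The number of arrays and the background of dim probes limit what small changes can be seen.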
